A study of Rattus norvegicus with 8 samples.

Results

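The insulin-like growth factor (IGF) system was described through 10 genes: the ligands Igf1 and Igf2, the receptors Igf1r and Igf2r, and the binding protein genes Igfbp2, Igfbp3, Igfbp4, Igfbp5, Igfbp6 and Igfbp7. They were chosen by name from 12282 genes listed in at least 1 library, and all 10 were listed in all 8 libraries. The choice was made with levels in these libraries already known, Igfbp3 among them, so the levels and ratios of the members are a description with no test. The libraries come from single-cell RNA sequencing of callus, the tissue that forms between the ends of a healing bone, from Sprague Dawley rats with a closed fracture of 1 femur fixed with a nail inside the bone. The groups at week 12 and at week 4 after fracture were zoledronate with CGRP (the CGRP libraries), zoledronate with magnesium (the magnesium libraries), zoledronate alone, and control, labelled untreated. Zoledronate, a bisphosphonate that slows bone resorption, was injected under the skin at 0.3 mg/kg each week for 12 weeks before the fracture. CGRP is calcitonin gene-related peptide, a neuropeptide of sensory nerves, whose dose the labels do not give. They name a stainless steel and a magnesium-containing nail, but not which group had which. For age, sex and the number of rats behind a library the labels give no value.

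Each group is 1 library, so these libraries can be compared but the treatments cannot, and higher or lower refers to libraries throughout. A unique molecular identifier (UMI) marks each transcript that was captured. Levels are CPM, a gene's UMIs scaled to a library total of 1000000, summed over 65208 of 69624 barcodes, those with at least 5000 UMIs. A library held 6809 to 10370 such barcodes and 139656712 to 159685281 UMIs, with a median per barcode between 12742 (CGRP, week 12) and 20545 (control, week 4). Cells had been kept in a dish for 24 h after digestion, so cells lost in the dish were not measured. Fibroblastic markers summed to 28731 to 48781 CPM, with 10 of 10 markers at 1 CPM or more in every library. Not every marker was strong. Dcn was at 2.28 to 355 CPM and Lum at 6.09 to 218 CPM, both lowest in control at week 12. Macrophage markers summed to 11.4 to 22.0 CPM and endothelial markers to 37.1 to 52.1 CPM. Csf1r, the receptor of the macrophage lineage, reached at most 0.526 CPM, and Pecam1 and Kdr, which mark endothelium, stayed under 1 CPM. Markers of osteoblasts summed to 273 to 1183 CPM and of chondrocytes to 81.3 to 316 CPM. Those of osteoclasts summed to 63.0 to 168 CPM and of skeletal muscle to 34.8 to 177 CPM. Spp1 made up most of the osteoblast sum, Ctsk most of the osteoclast sum and Acta1 most of the skeletal muscle sum in every library. Col1a1 and Col1a2 together made up most of the fibroblastic sum, and Tagln most of the smooth muscle and pericyte sum. Bglap, the osteocalcin gene of mature bone cells, and Col2a1, the collagen gene of hyaline cartilage, stayed under 1 CPM. Pairs of libraries shared 11 to 26 barcodes. Intervals are 95% intervals, exact Poisson for CPM and Clopper-Pearson (exact binomial) for shares. They cover counting error only. A sum over a library cannot tell fewer expressing cells from less RNA per cell, which is why shares of barcodes are given as well.

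As background, IGF1 and IGF2 are small peptides related to insulin that drive growth of cartilage and bone, and stromal and bone cells make them locally besides the supply from the liver. Both signal through the IGF1 receptor, a tyrosine kinase, whereas the IGF2 receptor, which also carries lysosomal enzymes tagged with mannose 6-phosphate, takes IGF2 into the cell for breakdown. The binding proteins hold the ligands outside the cell, can block or prolong their action, and release them when proteases cut them.

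The bases just before 4 of the genes are shown here. Igf1 and Igfbp3 are shown because they were the members whose 4 week 12 levels all lay above their 4 week 4 levels, Igfbp4 because its window was the only member window with a TATA box, and Igfbp7 because it held the most GC boxes. All are from RefSeq on build GRCr8, 250 bases that end at the gene's listed start, 5′ to 3′ on the gene's strand. Capitals mark motif matches on either strand. Igf1 lies at chr7:24172282-24172531 (+), Igfbp3 at chr14:86277945-86278194 (-), Igfbp4 at chr10:84491221-84491470 (+) and Igfbp7 at chr14:31091486-31091735 (+).
Igf1: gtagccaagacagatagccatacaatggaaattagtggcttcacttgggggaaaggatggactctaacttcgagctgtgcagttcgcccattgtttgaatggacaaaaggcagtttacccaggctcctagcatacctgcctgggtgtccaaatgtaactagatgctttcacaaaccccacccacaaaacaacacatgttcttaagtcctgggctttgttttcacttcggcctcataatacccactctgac
Igfbp3: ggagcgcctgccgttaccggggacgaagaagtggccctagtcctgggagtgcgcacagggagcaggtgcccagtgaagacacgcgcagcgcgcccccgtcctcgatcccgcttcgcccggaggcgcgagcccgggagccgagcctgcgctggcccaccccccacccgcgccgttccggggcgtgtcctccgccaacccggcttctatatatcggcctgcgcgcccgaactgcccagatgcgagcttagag
Igfbp4: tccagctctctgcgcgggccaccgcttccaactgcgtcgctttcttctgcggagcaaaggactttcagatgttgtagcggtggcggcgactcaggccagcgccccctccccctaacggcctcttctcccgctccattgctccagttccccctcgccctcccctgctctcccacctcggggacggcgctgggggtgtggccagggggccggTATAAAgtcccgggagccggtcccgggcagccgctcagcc
Igfbp7: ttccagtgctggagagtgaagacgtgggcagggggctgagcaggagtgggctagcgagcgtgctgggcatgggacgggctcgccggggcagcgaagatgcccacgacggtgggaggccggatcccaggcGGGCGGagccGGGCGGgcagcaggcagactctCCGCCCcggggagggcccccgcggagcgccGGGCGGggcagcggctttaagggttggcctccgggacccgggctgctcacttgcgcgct

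The motifs searched were the TATA box TATAAA, the GC box GGGCGG, the CCAAT box CCAAT, the cyclic AMP response half-site TGACG and the AP-1 site TGANTCA. In the windows shown no match overlapped another. Igfbp4 held 1 TATA box, which began 40 bases before the start, and 12.9% of 33469 rat promoter windows hold one. Igfbp7 held 4 GC boxes, at 121, 111, 89 and 59 bases before the start, and 30.5% of windows hold at least 1. In the windows of Igf1 and Igfbp3 the letters of all 5 motifs were missing, which says only that these letters are not in these 250 bases. The window of Igf2r, not shown, held 2 GC boxes, at 152 and 103 bases, and 2 cyclic AMP half-sites, at 128 and 81 bases before the start. The windows of Igf1r and Igfbp2 and 1 of the 2 windows of Igf2, also not shown, held 1 GC box each, at 184 bases for Igf1r, 66 for Igfbp2 and 129 for Igf2. The share of windows with a CCAAT box was 34.0%, with the cyclic AMP half-site 18.2% and with the AP-1 site 6.34%. G and C made up 46.8% of the Igf1 window, 71.6% of the Igfbp3 window, 68.8% of the Igfbp4 window and 74.4% of the Igfbp7 window, against a median of 51.2% over all windows.

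Of the ligands, Igf1 had a clear level in these cells, and it differed between the weeks. At week 12 Igf1 stood at 353 CPM in CGRP, 113 CPM in magnesium, 142 CPM in zoledronate and 161 CPM in control. Week 4 levels were 17.6 CPM in CGRP, 18.3 CPM in magnesium, 58.9 CPM in zoledronate and 49.1 CPM in control. Every week 12 library was above every week 4 library, and CGRP was the highest at week 12 and the lowest at week 4. The neighbours CGRP and magnesium at week 4 did not differ beyond their intervals of 17.0 to 18.3 and 17.6 to 19.02 CPM, and all other neighbours in the order did. The ratio of week 12 to week 4 was 20.0 in CGRP (95% interval 19.3 to 20.8), 6.15 in magnesium (5.91 to 6.41), 2.41 in zoledronate (2.36 to 2.47) and 3.28 in control (3.19 to 3.37).

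Igf2, the other ligand, was at the edge of detection. It ranged over the libraries between 0.0430 CPM in control at week 12 (6 UMIs) and 0.227 CPM in magnesium at week 4 (34 UMIs). In CGRP at week 4, 26 of its 34 UMIs came from 1 barcode, so a single cell set that level. Intervals of most libraries overlapped. That of control at week 12 (0.0158 to 0.0935 CPM) lay below those of magnesium (0.132 to 0.276 CPM) and zoledronate (0.0986 to 0.229 CPM) at week 12. It also lay below those of magnesium and control at week 4. The interval of CGRP at week 4 was above it too, but 1 cell set that level, so no separation is read from it. All of these levels rest on 6 to 34 UMIs per library.

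**Figure D1:**
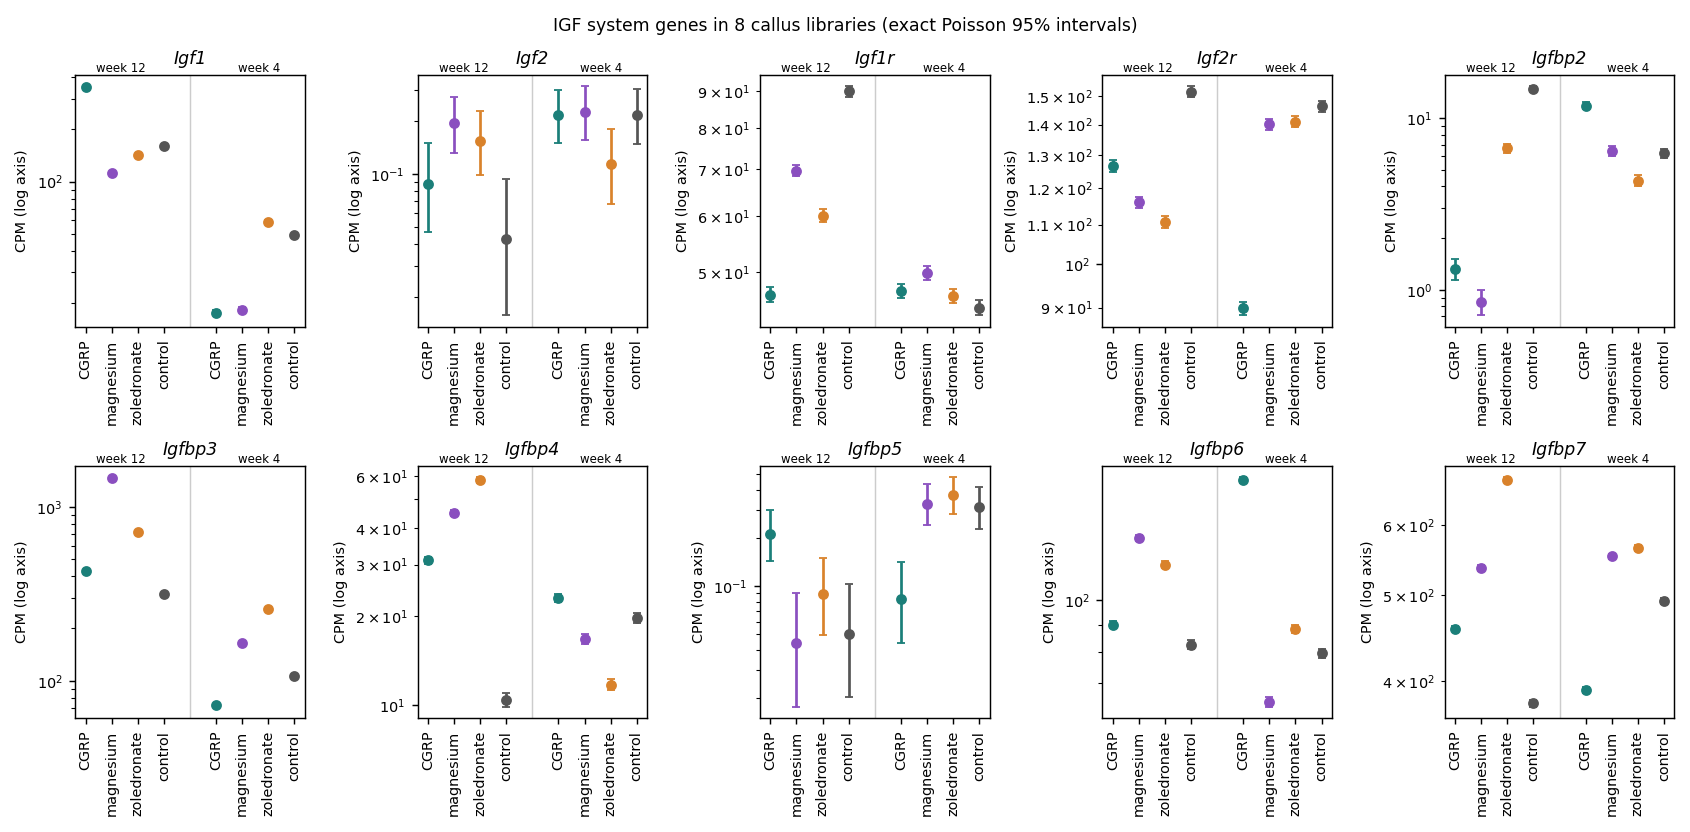
Level of each of the 10 IGF system genes in CPM (log axis, scaled separately for each gene) in the 8 libraries, with week 12 left and week 4 right of the line; points are single libraries and bars are exact Poisson 95% intervals. The week 12 points of Igf1 and Igfbp3 lie above all of their week 4 points, and Igf2 and Igfbp5 stay under 1 CPM.

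Both receptors varied less than Igf1. Igf1r carries the growth signal. At week 12 Igf1r was at 46.5 CPM in CGRP, 69.6 CPM in magnesium, 60.1 CPM in zoledronate and 90.0 CPM in control. Its week 4 levels were 47.1 CPM in CGRP, 49.9 CPM in magnesium, 46.3 CPM in zoledronate and 44.5 CPM in control. The week 4 libraries were thus within 1.12-fold of each other, while control at week 12 stood above all others and CGRP at week 12 stayed at the level of week 4. The interval of CGRP at week 12 (45.4 to 47.6 CPM) overlapped those of CGRP (46.0 to 48.2 CPM) and zoledronate (45.3 to 47.4 CPM) at week 4. It also overlapped that of control at week 4 (43.5 to 45.6 CPM).

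Igf2r encodes the receptor that removes IGF2. At week 12 Igf2r was at 127 CPM in CGRP, 116 CPM in magnesium, 111 CPM in zoledronate and 152 CPM in control. Igf2r levels at week 4 were 89.8 CPM in CGRP, 140.1 CPM in magnesium, 141 CPM in zoledronate and 146 CPM in control. CGRP at week 4 was the low library and control at week 12 the high one, 1.69-fold apart. Magnesium and zoledronate at week 4 did not differ beyond counting error, with intervals of 138 to 142 and 139 to 143 CPM.

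Igfbp3 encodes the main carrier of IGFs in serum, where it forms a large complex with the acid-labile subunit. At week 12 it stood at 426 CPM in CGRP, 1479 CPM in magnesium, 721 CPM in zoledronate and 316 CPM in control. Its levels at week 4 were 72.2 CPM in CGRP, 165 CPM in magnesium, 259.7 CPM in zoledronate and 106 CPM in control. As with Igf1, all week 12 libraries were above all week 4 libraries, and no neighbours in the order had overlapping intervals. Magnesium at week 12 was 20.5-fold above CGRP at week 4, the lowest library. The range of Igf1 was 20.0-fold, and its interval given above holds 20.5, so which of them ranged wider is not settled. Week 12 over week 4 was 8.97 in magnesium (8.85 to 9.09), 5.90 in CGRP (5.78 to 6.02), 2.78 in zoledronate (2.75 to 2.81) and 2.97 in control (2.92 to 3.03). Of the 8 members with a mean of at least 5 CPM, these 2, Igf1 and Igfbp3, had no overlap between weeks in this direction, against 6.6% of 7226 genes at that level. The pattern was noticed in the values, and libraries of different treatments are not replicates of a week.

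Igfbp4 encodes an inhibitor of IGF action that the protease PAPP-A cuts. At week 12 it was at 31.0 CPM in CGRP, 45.0 CPM in magnesium, 58.1 CPM in zoledronate and 10.4 CPM in control. The week 4 libraries had 23.1 CPM in CGRP, 16.8 CPM in magnesium, 11.7 CPM in zoledronate and 19.7 CPM in control. The 3 libraries with zoledronate were the highest of all at week 12 and control was the lowest of all. At week 4 zoledronate was the lowest of its week.

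Igfbp2, a carrier found in many growing tissues, was seen in few cells. At week 12 Igfbp2 was at 1.31 CPM in CGRP, 0.845 CPM in magnesium, 6.69 CPM in zoledronate and 14.8 CPM in control. Igfbp2 at week 4 was at 11.8 CPM in CGRP, 6.43 CPM in magnesium, 4.33 CPM in zoledronate and 6.24 CPM in control. CGRP and magnesium at week 12 were therefore far below the rest, and the intervals of zoledronate at week 12 and of magnesium and control at week 4 overlapped. Its mean of 6.55 CPM put it just inside the level of 5 CPM used for ratios, and Igfbp5 (mean 0.186 CPM) and Igf2 (mean 0.157 CPM) were outside it.

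Igfbp6, whose protein prefers IGF2 to IGF1, was highest in CGRP at week 4. At week 12 it was at 90.1 CPM in CGRP, 131 CPM in magnesium, 117 CPM in zoledronate and 82.6 CPM in control. Igfbp6 at week 4 was at 168 CPM in CGRP, 64.5 CPM in magnesium, 88.3 CPM in zoledronate and 79.5 CPM in control. Apart from CGRP at week 4, magnesium stood at both ends, with the highest level at week 12 and the lowest at week 4.

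Igfbp7, a secreted relative that binds IGFs only weakly, was found in nearly every cell. At week 12 Igfbp7 was at 459 CPM in CGRP, 536 CPM in magnesium, 674 CPM in zoledronate and 378 CPM in control. Levels at week 4 were 392 CPM in CGRP, 553 CPM in magnesium, 565 CPM in zoledronate and 493 CPM in control. Zoledronate was the highest library of each week, and the whole range was 1.78-fold. Igfbp5, a carrier with strong binding to bone matrix, stayed between 0.0438 CPM in magnesium at week 12 and 0.370 CPM in zoledronate at week 4. RefSeq places Igfbp5 beside Igfbp2 on chromosome 9.

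The share of barcodes with a UMI was compared after each barcode had been thinned at random to 5000 UMIs, so that depth was equal. No class of cells that should lack these genes was at hand, so the part of free RNA in these shares was not measured, and doublets were not removed. Igfbp3 was found in 51.5% of barcodes in CGRP, 82.7% in magnesium, 62.6% in zoledronate and 35.9% in control at week 12. Without thinning the week 12 shares were 67.5% in CGRP, 93.9% in magnesium, 82.5% in zoledronate and 60.5% in control. At week 4 the thinned shares were 15.9% in CGRP, 30.2% in magnesium, 40.3% in zoledronate and 22.6% in control, and the unthinned shares 31.4% in CGRP, 53.2% in magnesium, 65.7% in zoledronate and 44.9% in control. At both weeks the library with the most Igfbp3 had it in the most barcodes and also had more per positive barcode. The positive barcodes held on average 4.08 UMIs in CGRP, 8.46 in magnesium, 5.97 in zoledronate and 4.71 in control at week 12. At week 4 they held 2.29 in CGRP, 2.74 in magnesium, 3.16 in zoledronate and 2.38 in control. Barcodes with 10 or more Igfbp3 UMIs of the 5000 made up 23.8% of magnesium, 11.4% of zoledronate, 5.18% of CGRP and 4.64% of control at week 12.

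Igf1 was found in 54.8% of barcodes in CGRP, 31.8% in magnesium, 33.3% in zoledronate and 34.4% in control at week 12. Unthinned, these shares were 71.6% in CGRP, 58.2% in magnesium, 54.8% in zoledronate and 57.3% in control. At week 4 Igf1 was found in 6.58% in CGRP, 5.57% in magnesium, 13.4% in zoledronate and 12.2% in control, or unthinned in 16.1% in CGRP, 13.5% in magnesium, 26.8% in zoledronate and 26.8% in control. The magnesium, zoledronate and control libraries of week 12 were close to each other in this share, and CGRP stood above them. Igfbp7 was found in 79.3% to 93.2% of thinned barcodes, Igf2r in 34.9% to 49.8%, Igfbp6 in 25.5% to 53.1%, Igf1r in 19.2% to 34.1%, Igfbp4 in 4.82% to 23.6% and Igfbp2 in 0.375% to 5.26%. The unthinned ranges were 98.1% to 99.8% for Igfbp7, 73.6% to 89.9% for Igf2r, 58.5% to 87.7% for Igfbp6, 42.6% to 74.2% for Igf1r, 14.3% to 52.8% for Igfbp4 and 1.18% to 10.9% for Igfbp2.

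**Figure D2:**
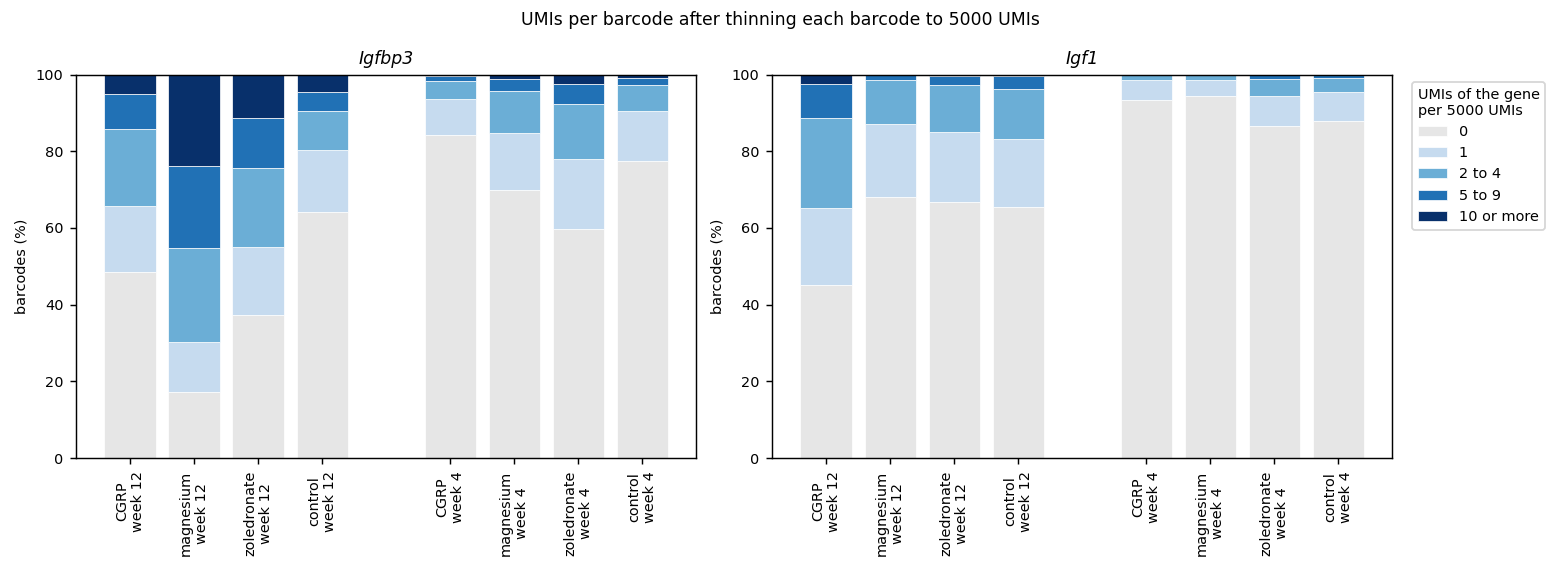
Share of barcodes (%) by the number of UMIs of Igfbp3 (left) and Igf1 (right) after each barcode was thinned to 5000 UMIs, in the 8 libraries; darker segments stand for more UMIs. The dark segment of 10 or more Igfbp3 UMIs takes 23.8% of magnesium at week 12, and the pale segment of 0 Igf1 UMIs takes 45.2% of CGRP at week 12 and 93.4% of CGRP at week 4.

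The zoledronate library was set against the untreated one, and binding proteins were the members furthest apart. Since the nail of each group is not given, drug and nail cannot be told apart here. Igfbp3 was higher in zoledronate at week 12 (log2 ratio of CPM plus 1 of 1.19, 721 against 316 CPM) and at week 4 (1.28, 259.7 against 106 CPM). Igfbp4 was higher at week 12 (2.38) and lower at week 4 (-0.70). Igfbp7 was higher at week 12 (0.83) and Igfbp2 lower (-1.03). On this scale a member was past the fold at 1.5-fold with a mean of at least 5 CPM over both libraries. At week 12, 3 of the 8 members at that level were higher, against 5.28% of 7202 genes, and 1 was lower, against 12.2%. At week 4, 1 of 8 was higher, against 1.31% of 7189 genes, and 1 was lower, against 1.18%. By absolute size Igfbp3 ranked 15 among those genes at week 4 and 349 at week 12, and Igfbp4 ranked 53 at week 12. Igf1 was close in both libraries, with log2 ratios of -0.18 at week 12 and 0.26 at week 4. Igf1r was at 0.668 of control at week 12 (0.650 to 0.686), just short of the fold, and at 1.04 at week 4.
The median over the members was 0.16 at week 12 and 0.10 at week 4, against -0.12 and -0.0049 over all genes. With scaling by TMM factors, which put the median of all genes at week 12 at -0.01, Igfbp3 stood at 1.30 and Igfbp6 at 0.61, against 0.49 without them, so that 4 in place of 3 members were higher. Control at week 12 was the lowest library of all for Igfbp4 and Igfbp7 and the highest for Igfbp2 and Igf1r, so these ratios rest on that library as well. At week 12 the fibroblastic markers summed to 48781 CPM in zoledronate against 29682 CPM in control. Those of smooth muscle and pericytes summed to 18371 against 13443 CPM, and those of osteoclasts to 147 against 63.0 CPM. Most of the osteoclast sum was Ctsk, with 124 CPM in zoledronate and 50.8 CPM in control. Oscar and Tnfrsf11a, both under 1 CPM, were lower in zoledronate. Thy1 was the only fibroblastic marker lower in zoledronate, at 42.4 CPM against 95.6 CPM in control. The part of these markers in these ratios was not tested.

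CGRP with zoledronate was set against zoledronate alone, and Igf1 and Igfbp4 lay past the fold on opposite sides at the 2 weeks. Igf1 was higher in CGRP at week 12 (353 against 142 CPM, log2 ratio 1.30) and lower at week 4 (17.6 against 58.9 CPM, -1.69). Igfbp3 was lower at both weeks (-0.76 at week 12 and -1.83 at week 4), and Igfbp7 stood at -0.55 at week 12 and -0.53 at week 4, short of the fold. At week 12, 1 of the 7 members at 5 CPM was higher, against 5.63% of 7110 genes, and 2 were lower (Igfbp3 and Igfbp4 at -0.89), against 5.13%. At week 4, 3 of 8 were higher, against 4.47% of 7158 genes: Igfbp2 (1.27), Igfbp4 (0.92) and Igfbp6 (0.92). Igf1, Igfbp3 and Igf2r (-0.64) were the 3 lower, against 5.38%. Igf1r stood at -0.36 at week 12 and 0.02 at week 4. Igfbp2 was at 1.31 against 6.69 CPM at week 12 (-1.73), under the level for a count. The median over the members was -0.37 at week 12 and -0.25 at week 4, against 0.01 and -0.01 over all genes. At week 4 the fibroblastic markers also differed, with a sum of 28731 CPM in CGRP and 47540 CPM in zoledronate. So did those of osteoclasts, with 64.3 CPM in CGRP and 141 CPM in zoledronate. Of these, Ctsk had 51.6 CPM in CGRP and 126 CPM in zoledronate. Thy1 was the only fibroblastic marker higher in CGRP at week 4, at 80.6 CPM against 59.0 CPM in zoledronate. At week 12 the markers of smooth muscle and pericytes summed to 10032 CPM in CGRP and 18371 CPM in zoledronate. The part of these markers in the ratios was not tested.

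The comparison of magnesium with zoledronate against zoledronate alone is the one the series title points to. Igfbp3 was the member past the fold at both weeks, higher in magnesium at week 12 (1479 against 721 CPM, 1.03) and lower at week 4 (165 against 259.7 CPM, -0.65). Igf1 was lower at week 4 (18.3 against 58.9 CPM, -1.63), where it ranked 8 of 7194 genes by absolute size, and stood at -0.33 at week 12. At week 12, 1 of 7 members was higher, against 7.63% of 7143 genes, and 0 were lower, against 4.49%. Igfbp2, under the level for a count, had the widest ratio of the members at week 12, at 0.845 CPM in magnesium against 6.69 CPM in zoledronate (-2.06). At week 4, 0 of 8 were higher, against 0.612% of 7194 genes, and 2 were lower, against 0.528%. Both receptors were within 1.16-fold of zoledronate at either week. The other carriers at that level lay between -0.36 (Igfbp4) and 0.16 (Igfbp6) at week 12. The member median was 0.07 at week 12 and -0.02 at week 4, against 0.07 and -0.01 over all genes. Osteoblast markers summed to 273 CPM in magnesium against 405 CPM in zoledronate at week 12. At week 4 they summed to 1183 CPM in magnesium against 789 CPM in zoledronate. Spp1 made up most of these sums, and the part of these markers was not tested. The 3 treatment comparisons share the zoledronate library, so a chance value in it moves all of them.

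**Figure D3:**
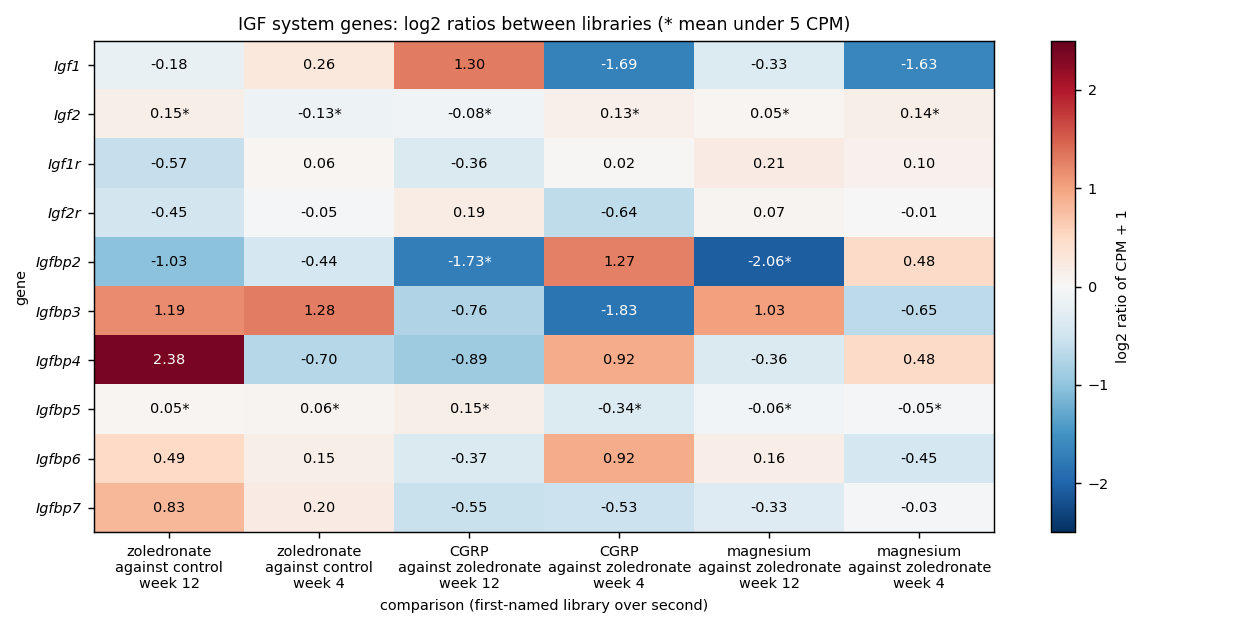
Log2 ratio of CPM plus 1 (colour and printed value) of the 10 genes (rows) in the 6 treatment comparisons (columns), the first-named library over the other; an asterisk marks a mean under 5 CPM over both libraries. Igfbp3 is above 1 in zoledronate against control at both weeks, and Igf1 in CGRP against zoledronate is 1.30 at week 12 and -1.69 at week 4.

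Between week 12 and week 4, each treatment had 3 to 5 members past the fold, Igf1 and Igfbp3 among them in all 4. In zoledronate 3 of 8 members were past the fold, all higher, against 8.91% of 7157 genes past it in either direction: Igf1 (log2 ratio 1.26), Igfbp3 (1.47) and Igfbp4 (2.22). In CGRP 4 of 8 were past it, against 14.4% of 7150 genes. Igf1 (4.25, rank 9 by absolute size) and Igfbp3 (2.54) were higher, and Igfbp2 (-2.47) and Igfbp6 (-0.89) were lower. In magnesium 4 of 7 were past it, against 10.8% of 7230 genes, and all were higher: Igf1 (2.56), Igfbp3 (3.16), Igfbp4 (1.37) and Igfbp6 (1.01). Igfbp2 in magnesium was left out by its level, at 0.845 CPM at week 12 against 6.43 CPM at week 4 (-2.01). In control 5 of 8 were past it, against 12.5% of 7236 genes. Igf1 (1.69), Igf1r (0.999), Igfbp2 (1.12) and Igfbp3 (1.56) were higher and Igfbp4 (-0.86) was lower. Week 12 and week 4 are different rats and dishes, and what part of these ratios comes from the library cannot be told apart from the week. Several marker lists moved with the week as well. Osteoblast markers summed to 273 to 405 CPM in the week 12 libraries and 776 to 1183 CPM in the week 4 libraries, and chondrocyte markers to 81.3 to 149 CPM at week 12 and 260.1 to 316 CPM at week 4. Skeletal muscle markers summed to 82.9 to 177 CPM at week 12 and 34.8 to 66.0 CPM at week 4. None of these 3 sums overlapped between the weeks, but single genes within the lists did. Spp1 was at 248 to 368 CPM at week 12 and 724 to 1115 CPM at week 4, while Runx2 overlapped. Acan was at 11.9 to 18.2 CPM at week 12 and 76.7 to 132 CPM at week 4, while Sox9 overlapped. Acta1 was at 78.6 to 174 CPM at week 12 and 29.5 to 60.7 CPM at week 4, while Tnnt3, Mylpf and Myh3 overlapped. In CGRP fibroblastic markers summed to 43635 CPM at week 12 and 28731 CPM at week 4. In control they summed to 29682 CPM at week 12 and 47481 CPM at week 4. Osteoclast markers, mostly Ctsk, went the same 2 ways. Within the fibroblastic list only Thy1 went against the sum in CGRP. In control Col1a1, Col1a2, Col3a1, Pdgfra, Dcn and Lum went with it. Postn (265 CPM at week 12 and 105 CPM at week 4), Thy1 (95.6 and 55.2 CPM), Pdgfrb and Fn1 were higher at week 12 in control. Markers of smooth muscle and pericytes summed to 18371 CPM at week 12 and 13501 CPM at week 4 in zoledronate, and to 13443 CPM at week 12 and 10792 CPM at week 4 in control. In magnesium they summed to 13971 CPM at week 12 and 13298 CPM at week 4, and in CGRP to 10032 CPM at week 12 and 10383 CPM at week 4. Tagln made up most of these sums, and single genes in the list differed from them. Cnn1 was at 376 to 802 CPM at week 12 and 61.2 to 188 CPM at week 4. Actg2 overlapped, at 33.2 to 128 CPM at week 12 and 80.4 to 187 CPM at week 4. The part of all these markers in the ratios was not tested.

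Within a library, genes of the system were mostly found together about as often as their separate shares give. Among 28 pairs of the 8 members, the share of thinned barcodes with both was divided by the product of the separate shares. Igfbp3 with Igfbp6 lay at 1.003 to 1.25 over the 8 libraries, and the interval of the observed share was above the product in 6. The ratio was largest in control at week 12, where 36.8% of Igfbp3-positive barcodes had Igfbp6, against 25.4% of Igfbp3-negative barcodes. Igf1 with Igfbp2 lay at 1.14 to 1.86, with 4 libraries above the product, although few barcodes had both (13 to 188). Igf1 with Igfbp3 went both ways. In CGRP at week 12, 45.6% of Igf1-positive barcodes had Igfbp3, against 58.6% of Igf1-negative barcodes, and in control at week 12 the shares were 32.0% of positive and 38.0% of negative barcodes. In magnesium 86.3% of Igf1-positive and 81.0% of Igf1-negative barcodes had Igfbp3 at week 12, and 38.5% and 29.7% at week 4. The 2 week 12 libraries below the product and the 2 magnesium libraries above it therefore differ in sign. Igf1 with Igf1r lay at 0.767 to 1.12, and only CGRP at week 4 had an interval off the product, below it. These are single libraries, and barcodes are not replicates.

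Barcodes were then split within each library by a UMI of 10 state markers, after the same thinning. Igfbp3 was higher in barcodes with Postn, which encodes the periosteal matrix protein periostin, in 8 of 8 libraries, with a median ratio of 2.12 (range 1.16 to 3.83). In zoledronate at week 12 it was at 941 CPM in barcodes with Postn and 338 CPM without, and in control at week 12 at 570.3 CPM with and 149 CPM without. In magnesium at week 12 the levels were close, at 1476 CPM with and 1269 CPM without. The share of barcodes with Postn was 67.7% in CGRP, 62.9% in magnesium, 67.9% in zoledronate and 44.9% in control at week 12, and 27.2% in CGRP, 52.6% in magnesium, 54.6% in zoledronate and 23.9% in control at week 4. Igfbp3 was also higher with Ccl2, a chemokine for monocytes, in 8 of 8 libraries (median ratio 1.68, range 1.08 to 2.74), but in zoledronate at week 4 the intervals overlapped (245 to 304 CPM with Ccl2 and 249 to 259 CPM without). Igfbp3 was lower with Lum, the proteoglycan lumican of fibrous tissue, in 7 of 8 (median 0.562). CGRP at week 4 was the exception at 1.11, with overlapping intervals. With Dcn, the other fibrous marker, Igfbp3 was higher in 4 libraries and lower in 4 (median 1.04, range 0.689 to 3.06).

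Igf1 went the other way with Ccl2: it was lower in barcodes with Ccl2 in 8 of 8 libraries (median ratio 0.558, range 0.321 to 0.785). In CGRP at week 12 it was at 202 CPM with Ccl2 and 395 CPM without. Igf1 was also lower with Il1rl1, which encodes the interleukin 33 receptor, in 8 of 8 (median 0.634, range 0.446 to 0.762). With Mki67, the marker of dividing cells, Igf1 was higher in 4 libraries and lower in 4. Barcodes with Hapln1, a gene of cartilage matrix, had 848 CPM of Igf1 in CGRP at week 12 (147 barcodes, interval 782 to 917), against 339 CPM in the others. In zoledronate and control at week 12 the ratio for Hapln1 was 0.828 and 0.687.

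Dividing cells differed in several members. Igfbp7 was lower in barcodes with Mki67 in 8 of 8 libraries (median ratio 0.680, range 0.558 to 0.793), and so was Igfbp6 (median 0.666, range 0.462 to 0.878). In zoledronate at week 12 Igfbp7 was at 403 CPM with Mki67 and 723 CPM without, and Igfbp6 at 58.7 CPM with and 127 CPM without. Igfbp3 was lower with Mki67 in 7 of 8 (median 0.615), and magnesium at week 12 was the exception, at 1673 CPM with and 1365 CPM without. Igf1r was higher with Top2a, another gene of dividing cells, in 8 of 8 (median 1.27, range 1.11 to 1.45), and in zoledronate and control at week 12 its intervals overlapped. The share of barcodes with Mki67 was 10.6% in CGRP, 11.0% in magnesium, 3.42% in zoledronate and 23.3% in control at week 12. At week 4 it was 33.4% in CGRP, 16.5% in magnesium, 14.7% in zoledronate and 23.4% in control. Ccl2 was in 25.4% of barcodes in CGRP, 54.0% in magnesium, 16.6% in zoledronate and 6.65% in control at week 12. At week 4 its share was 1.97% to 4.36%. Il1rl1 was in 66.1% of barcodes in control at week 12 and in 15.6% to 23.4% of each other library. Dcn ran from 0.977% in control to 65.8% in zoledronate, both at week 12. Shares of dividing, Postn, Ccl2, Il1rl1 and Dcn barcodes thus differed between the libraries whose sums were compared above. Their part in those ratios was not tested.

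Smaller but even splits were seen for other pairs. Igfbp6 was higher with Postn in 8 of 8 libraries (median ratio 1.20, range 1.02 to 1.67), and Igf2r with Dcn, the proteoglycan decorin, in 8 of 8 (median 1.13, range 1.05 to 1.22). Igfbp7 was higher with Alpl, the alkaline phosphatase of bone-forming cells, in 8 of 8 (median 1.17, range 1.03 to 1.23). Igf1r was lower with Lum in 8 of 8 (median 0.825, range 0.768 to 0.995). Igfbp4 and Igfbp6 were both lower with Il1rl1 in 8 of 8, with medians of 0.686 and 0.870. Igfbp4 was at 49.5 CPM with Il1rl1 and 61.2 CPM without in zoledronate at week 12, and at 9.26 CPM with and 13.7 CPM without in control at week 12. Some of these ratios lie so near 1 that the intervals of single libraries overlap. Igfbp2 was lower with Ccl2 and with Mki67 in 7 of 8 libraries each, with medians of 0.529 and 0.799, on few UMIs.

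**Figure D4:**
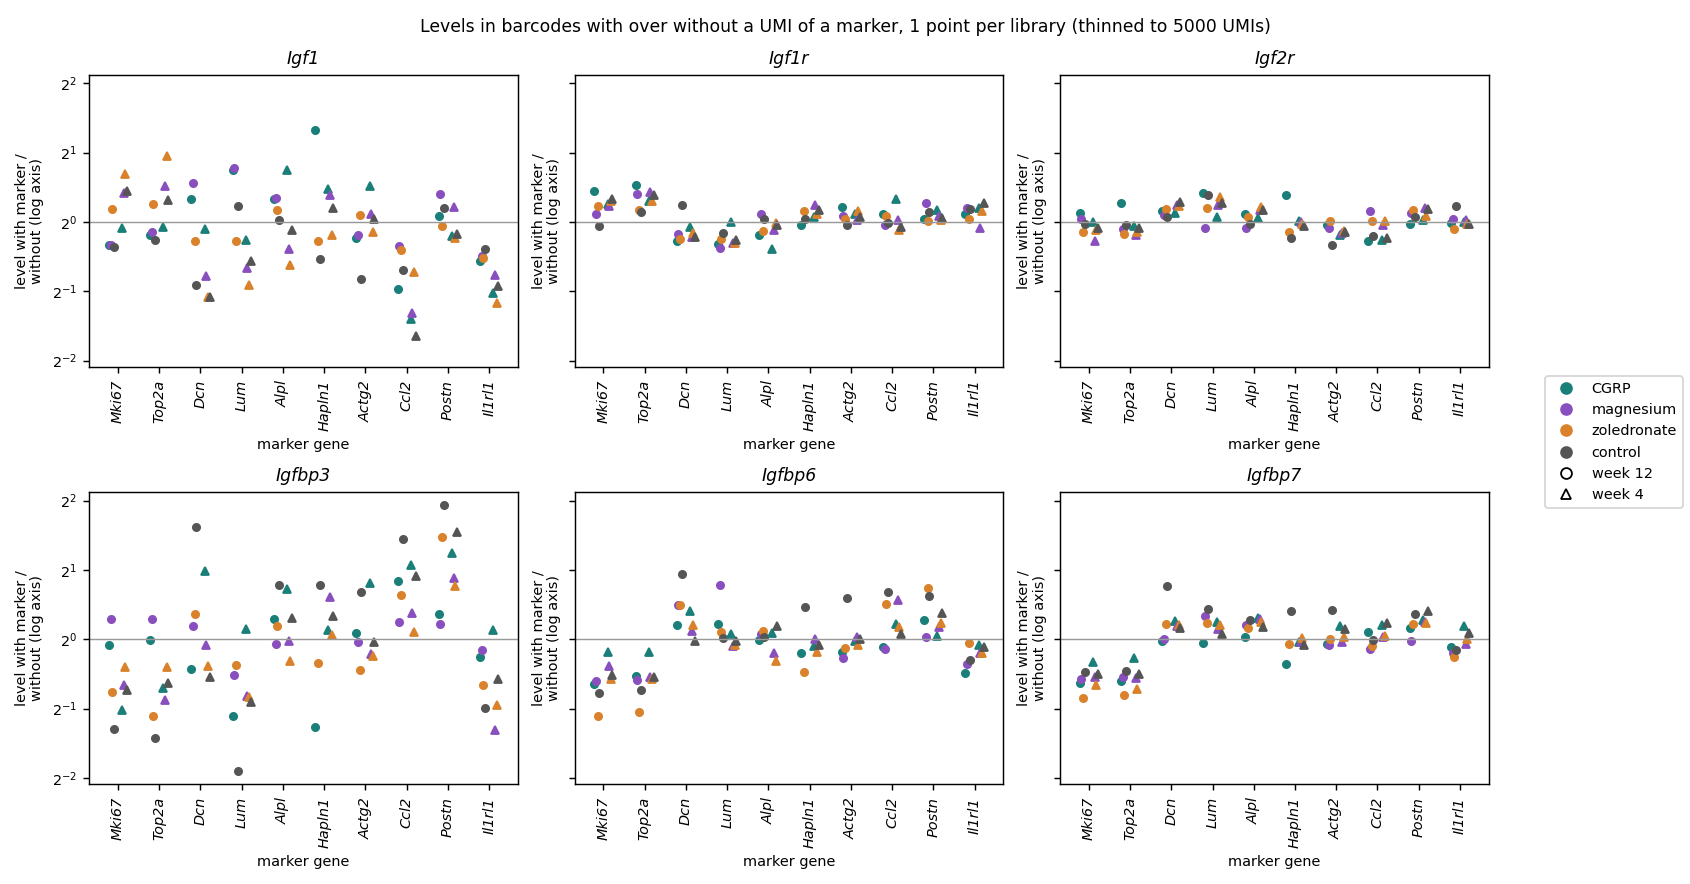
Level of 6 IGF system genes in barcodes with a UMI of a marker gene divided by the level in barcodes without (log axis; 1 point per library, circles week 12, triangles week 4, colours treatments; barcodes thinned to 5000 UMIs). All 8 points lie above 1 for Igfbp3 with Postn and with Ccl2, and below 1 for Igf1 with Ccl2 and for Igfbp6 and Igfbp7 with Mki67.

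Other genes of the pathway were taken from 3 lists. Of 20 modulators and proteases 15 were listed, and 6 reached a mean of 5 CPM over the 8 libraries. In zoledronate against control 3 of 6 were higher, against 5.28% of all genes, and 1 lower, against 12.2%, at week 12. At week 4, 1 was higher, against 1.31%, and 0 lower, against 1.18%. Pappa1, as the files list the gene of the protease PAPP-A that cuts IGFBP4, had 60.9 CPM at week 12 in CGRP, 26.3 CPM in zoledronate and 9.70 CPM in control. Also at that week Igfbp4, the gene of its substrate, had 31.0 CPM in CGRP, 58.1 CPM in zoledronate and 10.4 CPM in control. Pappa1 was thus higher and Igfbp4 lower in CGRP than in zoledronate, while both were higher in zoledronate than in control. Cutting of the IGFBP4 protein was not measured. Mmp2, a gelatinase that can also cut binding proteins, was higher in zoledronate than in control at both weeks (0.65 at week 12 and 0.82 at week 4). In CGRP against zoledronate Mmp2 was at 1.03 at week 12 and -2.17 at week 4, and in magnesium against zoledronate at 1.10 at week 12 and 0.08 at week 4. Ctsd, a lysosomal protease, was at 1.14 at week 12 in zoledronate against control, and Igf2bp2, which encodes a protein that binds Igf2 mRNA, at -1.90. Stc2, an inhibitor of PAPP-A, was at 3.07 CPM in CGRP and 7.46 CPM in zoledronate at week 12, and Mmp14, a membrane protease, at 91.8 CPM in CGRP and 59.1 CPM in zoledronate. In CGRP against zoledronate 3 of 6 were higher, against 5.63% of all genes, and 2 lower, against 5.13%, at week 12, and 0 were higher, against 4.47%, and 2 lower, against 5.38%, at week 4. In magnesium against zoledronate 3 of 7 were higher, against 7.63%, and 0 lower, against 4.49%, at week 12. At week 4, 0 of 6 passed in either direction, against 0.612% of all genes higher and 0.528% lower. With so few genes in the list, each count is a description of those genes.

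Few genes of receptors and signalling inside the cell were past the fold. Of 27, 25 were listed and 17 reached that mean, and over the 6 treatment comparisons 0 were higher and at most 2 lower in any. Over all genes 0.612% to 7.63% were higher and 0.528% to 12.2% lower, so counts this small are near the background and set nothing apart. At week 12 Irs2, an adaptor of the receptor, was at 10.1 CPM in CGRP, 11.0 CPM in magnesium and 18.5 CPM in zoledronate. Grb10, which dampens the receptor's signal, had 109 CPM in magnesium against 174 CPM in zoledronate at week 12. Pik3cb, a catalytic subunit of phosphoinositide kinase, had 4.85 CPM in zoledronate against 8.23 CPM in control at week 12.

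Relatives whose proteins carry an IGFBP domain lay on both sides. Of 10, 9 were listed and 8 reached that mean. In zoledronate against control 2 of 8 were higher, against 5.28% of all genes, and 3 lower, against 12.2%, at week 12. At week 4, 0 of 7 passed, against 1.31% of all genes higher and 1.18% lower. Nov, which encodes the matricellular protein CCN3, had 28.4 CPM in zoledronate against 5.58 CPM in control at week 12. Ctgf (CCN2), a growth factor of connective tissue, had 6924 CPM in zoledronate against 3964 CPM in control. Esm1, a gene of a secreted proteoglycan, had 12.8 CPM in zoledronate against 77.5 CPM in control. Crim1 had 42.9 CPM in zoledronate against 79.4 CPM in control, and Kazald1 10.8 CPM in zoledronate against 16.7 CPM in control. In CGRP against zoledronate 2 of 8 were higher, against 5.63%, and 3 lower, against 5.13%, at week 12, and 0 of 7 were higher, against 4.47%, and 3 lower, against 5.38%, at week 4. Cyr61 (CCN1) was at 316 CPM in CGRP and 582 CPM in zoledronate at week 12. In magnesium against zoledronate 2 of 8 were higher, against 7.63%, and 2 lower, against 4.49%, at week 12. At week 4, 1 of 7 was higher, against 0.612%, which was Nov at 15.2 CPM in magnesium and 9.30 CPM in zoledronate, and 0 were lower, against 0.528%.

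Genes with the most similar pattern over the 8 libraries were found among 7226 genes with a mean of at least 5 CPM. The measure was the root mean square difference of log2(CPM plus 1), each gene centred on its own mean. All genes come from the same 8 libraries, so they share any difference in depth or handling between these. For Igfbp3 the nearest were Cnn1, a calponin of contractile cells (0.33), Pla2g7 (0.45) and Grem1, a secreted BMP antagonist (0.50), while Igfbp3's own spread was 1.34. For Igf1, with a spread of 1.40, they were Rcan2 (0.60), LOC100910973 (0.64) and F2r, a thrombin receptor (0.77). For Igfbp4, with a spread of 0.79, they were Pdpn (0.40), Rasl12 (0.44) and Bnip3 (0.48). For Igfbp2, with a spread of 1.02, they were Epha2 (0.42), Dmrta2 (0.42) and Rasgrp3 (0.44). For Igfbp6, with a spread of 0.41, they were Gjb2 (0.22), Pfkp (0.26) and Lgals3 (0.27).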

How the data were processed

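The authors deposited 1 table per library of counts, whole numbers of UMIs per gene and cell barcode. Per the submitters' processing notes, reads were aligned with STAR to build Rnor_6.0, with counter, annotation, cell calling and filters not given in the sources used here. Listed genes were each in at least 5 barcodes of a library, barcodes had at least 500 genes, and of mitochondrial genes 0 were listed.

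The members and all lists were chosen with earlier results of these data known. UMIs were summed over barcodes with at least 5000 UMIs and scaled to CPM, and ratios are log2 of CPM plus 1, which makes the ratios of low genes smaller. With 1 library per group no test was run. For shares, co-detection and marker splits each barcode was thinned to 5000 UMIs without replacement (numpy 2.4.6). A split by a marker needed at least 50 barcodes with a UMI of the marker. Intervals came from scipy 1.17.1, and the ratio step was tested on simulated data. Doublets were not removed. All members are named. From the pathway lists up to 6 genes each are named, those at least 1.5-fold apart in a treatment comparison with the largest log2 ratio, and for members with a log2 range of at least 1 the 3 nearest genes. Alternatives were TMM (edgeR 4.0.16) and DESeq2 1.42.0 size factors, other barcode minimums, thinning, pseudocounts and level filters. RefSeq promoter windows are of GRCr8, another build, and no coordinates of the files' own build are given.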

Additional observations from a re-analysis of the deposited data

Results flagged for a closer look

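Several members stood past the fold in opposite directions in the same contrast at the 2 weeks, or over time in different treatments. With 1 library per group, the difference was not tested for any of them. Values are log2 ratios of CPM plus 1.

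Igfbp4 in zoledronate against control was at 2.38 at week 12 and -0.70 at week 4. Igfbp4 in CGRP against zoledronate was at -0.89 at week 12 and 0.92 at week 4. In week 12 against week 4 Igfbp4 was at 2.22 in zoledronate and 1.37 in magnesium, and at -0.86 in control. Igf1 in CGRP against zoledronate was at 1.30 at week 12 and -1.69 at week 4. Igfbp3 in magnesium against zoledronate was at 1.03 at week 12 and -0.65 at week 4. In week 12 against week 4 Igfbp2 was at -2.47 in CGRP and 1.12 in control, and Igfbp6 was at -0.89 in CGRP and 1.01 in magnesium. The comparisons with zoledronate share its libraries, so these values are not independent.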

How the results depend on the processing

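No member's ratio past the fold changed sign under any alternative that was run. Counts of members past the fold did not move with all deposited barcodes. With TMM factors 4 members in place of 3 were higher in zoledronate than in control at week 12, since Igfbp6 moved to 0.61, and with DESeq2 size factors also 4, with Igfbp6 at 0.63. In zoledronate over time 4 in place of 3 were past the fold with DESeq2 size factors, with a pseudocount of 0.1 CPM and with each barcode thinned to 5000 UMIs, the added member being Igfbp2. With barcodes of at least 10000 UMIs 3 in place of 2 were lower in CGRP than in zoledronate at week 12, the added member being Igfbp7 at -0.63. With thinning to 5000 UMIs 1 member in place of 0 was higher in magnesium than in zoledronate at week 4, which was Igfbp4 at 0.60. With a pseudocount of 10 CPM the members lower in zoledronate than in control were 0 at week 12 and 0 at week 4, in place of 1 each, and those past the fold in control over time were 4 in place of 5. With no filter on low values Igfbp2 was added in 3 comparisons: 1 in place of 0 was lower in magnesium at week 12, 3 in place of 2 were lower in CGRP at week 12, and 5 in place of 4 were past the fold in magnesium over time. With a mean of at least 50 CPM fewer members reach the level. Those lower in zoledronate than in control were then 0 at week 12 and 0 at week 4, and those higher at week 12 were 2 in place of 3. Those higher in CGRP than in zoledronate at week 4 were 1 in place of 3, those lower in CGRP were 1 in place of 2 at week 12 and 2 in place of 3 at week 4, and those lower in magnesium at week 4 were 1 in place of 2. Over time 2 in place of 3 were past the fold in zoledronate, 3 in place of 4 in CGRP, 3 in place of 4 in magnesium and 3 in place of 5 in control. All other counts stayed as in the report. The largest shift of a ratio was that of Igfbp2 in CGRP over time, at -0.95 with a pseudocount of 10 CPM and -3.08 with 0.1 CPM, against -2.47. Thinning to 2000 UMIs moved 65 of 224 co-detection ratios and 233 of 632 marker ratios beyond their counting intervals. Without thinning 17 co-detection ratios and 332 marker ratios moved. With barcodes of at least 10000 UMIs thinned to 10000, 7 co-detection ratios and 131 marker ratios moved. The cause was not tested. No paired analysis was possible because each group has 1 library and no test was made. Counting error limits Igf2, Igfbp5 and, at week 12, Igfbp2, and the spread between rats was not measured.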
